A study of Mus musculus with 24 samples.

Results

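Microglia sorted from mouse brain slices were compared after exposure of the slices to wild-type (WT) exosomes or to phosphate-buffered saline (PBS). The comparison took all genes whose value varied among the microglia libraries, 13950 of the 20555 genes in the deposited table. It rests on 5 of the 24 samples of the series: the WT libraries lettered A, B and C and the PBS libraries lettered A and B. The PBS library lettered C was not analysed here. Slices received PBS, or exosomes carrying the green membrane dye PKH67 at 5 µg per slice, on 2 consecutive days. The labels call the exosomes given to the WT samples wild type, and those given to the other 6 microglia libraries KO1 and KO2. The series title names the tumour exosome protein CEMIP, which binds and helps break down hyaluronan. The exosome donor cells and the strain and age of the mice are not given in the sources used here. After the outer ring of the slice had been dissected, digested and freed of myelin, live microglia were sorted by flow cytometry on CD45 and on low levels of CD11b and CD49d. All samples, PBS included, are labelled as sorted for exosome signal although PBS slices received no exosomes, so the gate used for the PBS cells is unclear. What the letters mark (animals, cultures or preparations) is not stated, so p-values measure only how far these particular samples spread, and that spread may be technical.

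Microglia are the resident macrophages of the brain and take up particles and vesicles from their surroundings. Exosomes are small membrane vesicles that carry protein, RNA and lipid between cells. Macrophages answer danger signals along routes that include NF-kB, a transcription factor family that turns on chemokines and cytokines, and type I interferon, which acts through STAT and IRF factors on antiviral genes.

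Levels are normalised read counts, recovered from the deposited variance-stabilised values. Differences are WT minus PBS in deposited log2 values, and SE is their standard error from a limma fit over all 11 microglia libraries. That scale compresses low counts, so it understates the change of weakly expressed genes. The 11 libraries held an estimated 21.5 to 43.8 M reads, and those of the WT and PBS groups 26.0 to 34.3 M. Ptprc, which encodes CD45, ranged from 1529 to 3979 in the 5 libraries, Itga4 (CD49d) from 19.3 to 100.5, and the endothelial gene Pecam1 from 0 to 171.5. Itgam (CD11b) stood at 429.0 in WT C and at 1368 to 2989 in the others. The microglia markers summed to 28937 and 34014 with PBS and to 26105 to 27352 with WT exosomes. Among defining markers, P2ry12 and Gpr34 were at 0 in all 5 libraries, Cx3cr1 at 0 to 84.5 and Tmem119 at 97.6 to 432.6. Mouse Cemip was at 0 in all 5 and does not check the labels, since the knockouts were made in the exosome donors. In bulk RNA, fewer cells of a type and less RNA per cell cannot be told apart.

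The C libraries stood apart from the others, and no PBS library of that letter was available to set beside WT C. In many of the inflammatory genes described below, WT A and WT B lay above both PBS libraries and WT C lay between or below them. Results are therefore given with WT C, and those that lead a gene group also from a fit of letters A and B only or within each letter. That fit left out WT C and both knockout C libraries. For WT C, letter and treatment cannot be told apart.

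With all 3 WT libraries, 1 of 13950 genes passed (0.00717% of those tested, limma, adjusted p under 0.05), and it fell. Pip4k2c, a lipid kinase of the phosphatidylinositol 5-phosphate pathway (gene 117150; chromosome 10, 127197067 to 127211628, GRCm38.p6), stood at 1448 in PBS A and 1880 in PBS B and was listed at 0 in WT A, WT B and WT C. The groups did not overlap, and it was at 0 in 5 of the 6 knockout-exosome libraries too, with 125.6 in the other. The difference was -1.43 (SE 0.167, limma adjusted p = 0.0392). Its call ended when the fit held only the WT and PBS libraries and when WT A, WT B or WT C was left out, on log2 of counts plus 10, and with robust empirical Bayes. No gene rose, and 645 genes had an unadjusted p under 0.05, which is 4.62% of those tested.

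The 9 other genes of smallest p among those lower in WT also were at 0 in all 3 WT libraries, and none passed (adjusted p = 0.23 to 0.474, limma). They include Zfp248, a zinc finger protein (1116 and 327.7 with PBS), Nars2, the mitochondrial asparaginyl-tRNA synthetase (235.9 and 222.7), Herc3, a ubiquitin ligase of the HERC family (186.2 and 86.6), Tdg, a DNA repair glycosylase (58.5 and 18.3), and Ramp1, a partner of the calcitonin receptor-like receptor (22.3 and 25.1). Mctp1, Pcsk4, Fam110b and Fhl4 complete this set. On and off patterns were frequent between single like libraries: 407 genes were at 0 in PBS A and at 100 or more in PBS B, and 380 the other way round. These counts compare single libraries, so they are not a rate for a pattern shared by all 3 WT and both PBS libraries. Between the groups, 13 genes were at 0 in all 3 WT libraries and at 100 or more in both PBS libraries, and 15 genes the reverse.

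Among the 10 genes of smallest p higher in WT, none passed (adjusted p = 0.347 to 0.474, limma). Map3k2, a kinase that activates the ERK5 and JNK routes, stood at 176.6 and 571.0 with PBS and at 2688, 3294 and 1903 in WT A, B and C. Every WT library lay above both PBS libraries, WT C included, and the difference was 0.97 (SE 0.191, adjusted p = 0.347, limma) and 1.09 with letters A and B only. Gsap, the gamma-secretase activating protein, stood at 21.3 and 61.6 with PBS and at 764.6, 1152 and 1216 with WT exosomes. The others were Fam234a (156.2 and 0 with PBS, 1041 to 1600 with WT exosomes), Cav2, a caveolin (0 in both PBS libraries, 199.7 to 284.9), Mfsd8, a lysosomal membrane protein (0 in both, 114.7 to 712.7), and Zfp646 (0 in both, 697.8 to 869.2). Poc5, Tmem218, Gabpb2 and Atf5 were likewise at 0 in both PBS libraries. For comparison, all 3 WT libraries lay above both PBS libraries in 7.12% of varying genes and below both in 8.03%.

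**Figure D1:**
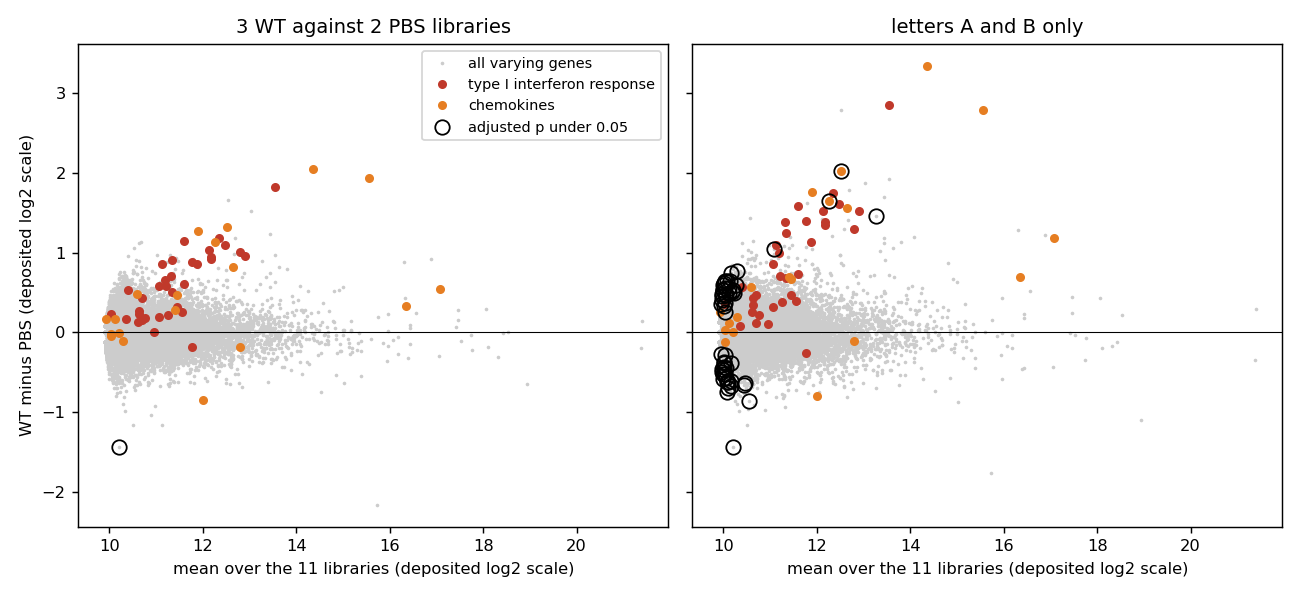
WT minus PBS on the deposited log2 scale (vertical) against the mean over the 11 libraries (horizontal), 1 point per varying gene, with all 3 WT libraries (left) and with letters A and B only (right). Circles mark genes with an adjusted p under 0.05, 1 gene on the left and 53 on the right, most of the latter near the floor of the scale at 9.89. Of the coloured genes, 13 of 19 chemokines and 33 of 34 interferon genes stand above 0 on the left.

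Of 34 varying type I interferon response genes, 33 stood above PBS, with a median difference of 0.58, against 6501 of 13950 and a median of 0 over all varying genes. Chemokines had 13 of 19 above PBS (median 0.33), MHC class I presentation 11 of 13 (0.25), NF-kB subunits and feedback genes 14 of 16 (0.19), and oxidative stress and iron genes 19 of 24 (0.14). No member of any of the 32 lists passed in the fit with all WT libraries, where 0.00717% of all genes did. WT C did not share these medians. Relative to the mean of both PBS libraries, the interferon list had a median of 1.08 in WT A, 0.43 in WT B and 0.05 in WT C, and chemokines 0.58 in WT A, 0.56 in WT B and -0.07 in WT C. WT A and WT B both lay above both PBS libraries in 24 interferon genes (70.6%), 11 NF-kB genes (68.8%), 11 chemokine genes (57.9%), 7 MHC class I genes (53.8%) and 12 of 24 oxidative stress and iron genes, against 14% of all varying genes.

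**Figure D2:**
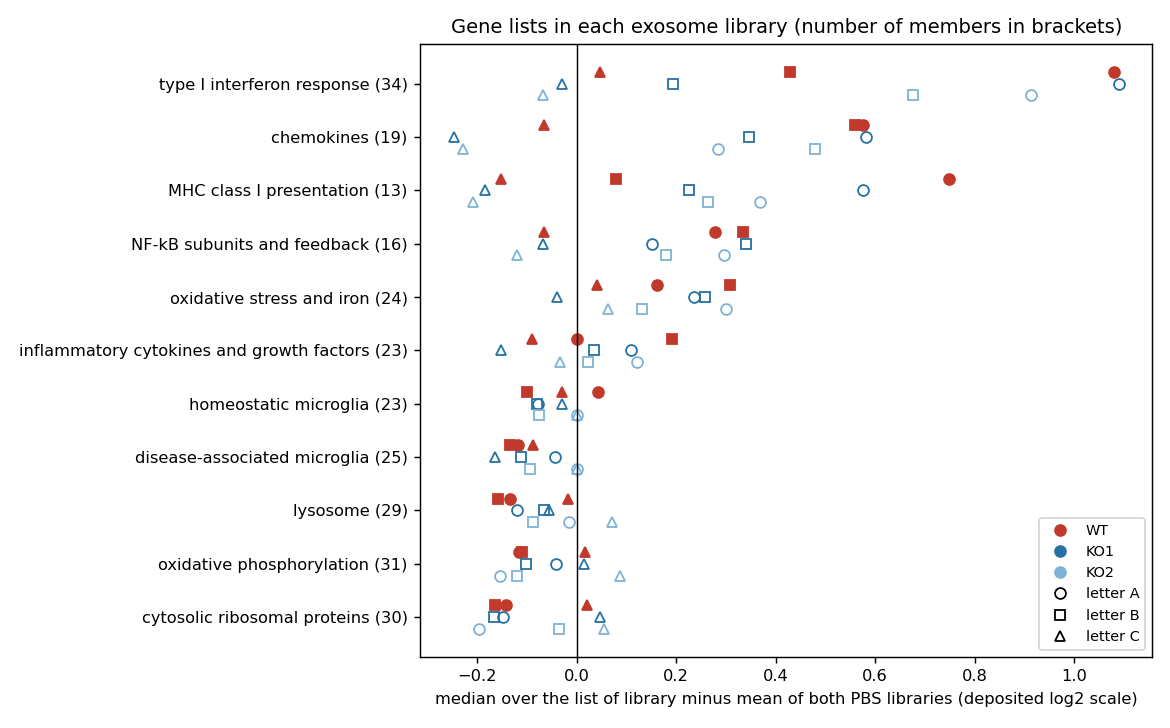
Median over each gene list of the library value minus the mean of both PBS libraries, on the deposited log2 scale, for the 9 exosome libraries (filled red, WT; open dark and light blue, KO1 and KO2; circles, squares and triangles, letters A, B and C). The interferon list stands at 1.08, 0.43 and 0.05 in WT A, B and C, and the C libraries of all 3 exosome groups lie near or below 0 in the first 5 lists.

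Once the C libraries were left out and genes near the floor were set aside (a mean over the 11 libraries at least 1 above the floor, 5227 genes, 2 choices combined after seeing the data), 8 genes passed, all higher (0.153% of those tested, limma). They were the chemokines Cxcl1, Cxcl2 and Ccl2, the cytokine Tnf, the prostaglandin enzyme Ptgs2, the itaconate enzyme Acod1, the mitochondrial superoxide dismutase Sod2 and the membrane protease Mmp14. In that fit, adjusted p below refers to limma with letters A and B only and this filter. With the C libraries left out and no filter, 53 genes passed (0.38%), 29 higher (0.208%) and 24 lower (0.172%). Of the 29 higher genes, 25 were at 0 in both PBS libraries, and all 24 lower genes were at 0 in WT A and WT B. Cxcl1, Ccl2, Sod2 and Mmp14 passed with and without the filter, and Cxcl2, Tnf, Ptgs2 and Acod1 did not pass without it. The filter takes a mean that is mostly of exosome libraries, so it admits genes that are low only with PBS and removes genes that are off with exosomes, and the direction of its calls is not read as a result. Mmp14 passed it only through the exosome groups. A filter on the mean of both PBS libraries instead (5238 genes, added after seeing the data) gave 8 genes (0.153%), 7 higher (0.134%) and 1 lower (0.0191%), which were the same genes with Pip4k2c, lower, in place of Mmp14.

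Among the chemokines, 3 of 12 tested passed with letters A and B only and the filter, and 2 of 19 without the filter. Of all genes, 0.153% and 0.208% were called higher in these fits (limma). Cxcl1, a neutrophil attractant (gene 14825; chromosome 5, 90891245 to 90893121), stood at 2088 in PBS A, 3040 in PBS B, 12830 in WT A, 17490 in WT B and 2340 in WT C. WT A and WT B were above both PBS libraries and WT C fell between them. Its difference was 1.96 within letter A and 2.09 within letter B, 2.02 with letters A and B only (SE 0.206, adjusted p = 0.00457, limma) and 1.33 with WT C (SE 0.848, adjusted p = 0.973). Cxcl2, a neighbouring gene with the same receptor, stood at 16620 and 36900 with PBS and at 121400, 152500 and 29150 in WT A, B and C. WT C again lay between the PBS libraries. The difference was 2.78 with letters A and B only (SE 0.405, adjusted p = 0.0306, limma, and 0.27 without the filter) and 1.93 with WT C (adjusted p = 0.964). Ccl2, which attracts monocytes (gene 20296; chromosome 11, 82035577 to 82037452), stood at 1647 and 2221 with PBS and at 10160, 9303 and 2205. WT C again lay between the PBS libraries, and the mean of WT A and WT B was 5.03 times the PBS mean (difference 1.65, SE 0.186, adjusted p = 0.00779, limma). With WT C its difference was 1.13 (adjusted p = 0.964, limma).

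Ccl5, which attracts T cells and monocytes (gene 20304; chromosome 11, 83525778 to 83530518), had the largest positive difference of all varying genes, at 10750 and 8222 with PBS and 138600, 51590 and 6030 in WT A, B and C. WT A and WT B averaged 95100 ± 61540 (SD, n = 2) against 9486 ± 1787 (SD, n = 2) with PBS, and WT C lay below both PBS libraries. Its difference of 3.34 with letters A and B only (SE 0.596) missed the threshold (adjusted p = 0.104, limma), as did 2.04 with WT C (adjusted p = 0.978). Cxcl10, an interferon-induced T cell attractant, stood at 1115 and 1322 with PBS and at 11250, 6323 and 1996. It was the 1 of 19 varying chemokines whose 3 WT libraries all lay above both PBS libraries, against 7.12% of all varying genes. Its difference was 1.28 (SE 0.645, adjusted p = 0.964, limma) and 1.76 with letters A and B only (adjusted p = 0.0633). Ccl5 and Cxcl10 passed in a fit with the letter as a replicate block, given at the end. Cxcl3 stood at 3016 and 3444 with PBS and at 8051, 18700 and 1329. The most abundant chemokines, Ccl3 and Ccl4, spanned 83710 to 155000 and 61960 to 104800 with PBS and differed by 0.54 and 0.33. Ccl6 went the other way, at 7831 and 4758 with PBS and 1375, 4684 and 2393 in the WT libraries (-0.84, adjusted p = 0.964, limma).

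Promoters of some leading genes are shown with their matches to 2 short motifs. The NF-kB motif was searched as GGGNNTTNCC and the interferon-stimulated response element (ISRE) as GAAANNGAAA, on both strands, in RefSeq windows of 300 bases on GRCm38.p6 that start 250 bases before the gene. Of 19 varying chemokine genes 13 had a window, and 6 of these (46.2%) held the NF-kB motif, as did 8 of 13 NF-kB subunit and feedback genes (61.5%), against 6.4% of 11197 varying genes and 4.8% of all 32851 windows. Of 26 interferon genes with a window, 13 held the ISRE, against 3.8% of varying genes and 3.4% of all windows. The ISRE was held by 1 of the 13 chemokine windows (7.7%), and the NF-kB motif by 1 of the 26 interferon windows (3.8%). The AP-1 motif TGANTCA was held by 3 of the 13 chemokine windows (23.1%) and 8 of the 26 interferon windows (30.8%), against 6.8% of varying genes. SREBP (TCACNCCAC) and hypoxia response (ACGTG) motifs were also searched, and were held by 0 and 2 of the 13 chemokine windows. A match is a description of the sequence and not a site in use, and AP-1 and hypoxia matches are not capitalised. The lines give the 250 bases before the start, 5′ to 3′ on the gene's strand, with NF-kB and ISRE matches in capitals.
Cxcl1, chr5:90890995-90891244, plus strand: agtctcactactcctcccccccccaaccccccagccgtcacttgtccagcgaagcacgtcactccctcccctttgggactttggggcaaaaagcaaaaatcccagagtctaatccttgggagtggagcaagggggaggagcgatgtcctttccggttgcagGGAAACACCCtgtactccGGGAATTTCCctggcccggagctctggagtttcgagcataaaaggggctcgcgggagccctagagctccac
Cxcl2, chr5:90903649-90903898, plus strand: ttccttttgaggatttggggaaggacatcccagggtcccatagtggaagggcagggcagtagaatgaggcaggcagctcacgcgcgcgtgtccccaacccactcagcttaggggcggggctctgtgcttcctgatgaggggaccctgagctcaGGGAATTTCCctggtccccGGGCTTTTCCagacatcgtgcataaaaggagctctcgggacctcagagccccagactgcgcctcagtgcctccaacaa
Cxcl10, chr5:92348890-92349139, minus strand: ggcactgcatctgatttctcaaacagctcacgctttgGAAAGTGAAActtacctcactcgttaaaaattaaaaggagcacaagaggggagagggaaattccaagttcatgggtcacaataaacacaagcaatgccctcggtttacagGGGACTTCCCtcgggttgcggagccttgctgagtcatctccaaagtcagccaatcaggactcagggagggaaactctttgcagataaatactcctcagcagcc
Rsad2, chr12:26456453-26456702, minus strand: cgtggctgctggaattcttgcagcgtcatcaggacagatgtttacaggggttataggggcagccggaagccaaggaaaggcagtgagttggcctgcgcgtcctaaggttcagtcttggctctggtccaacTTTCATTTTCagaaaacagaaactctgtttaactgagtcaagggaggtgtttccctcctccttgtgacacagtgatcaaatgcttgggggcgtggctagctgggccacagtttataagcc
Cxcl1 and Cxcl2 each held 2 NF-kB matches within 100 bases of the start, Cxcl10 held 1 match of each motif, and Rsad2, an antiviral enzyme described below, held 1 ISRE match. The windows of Tnf, Ptgs2, Acod1, Sod2, Mmp14 and Pip4k2c held neither, and Ccl2 and Ccl5 had no window.

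**Figure D3:**
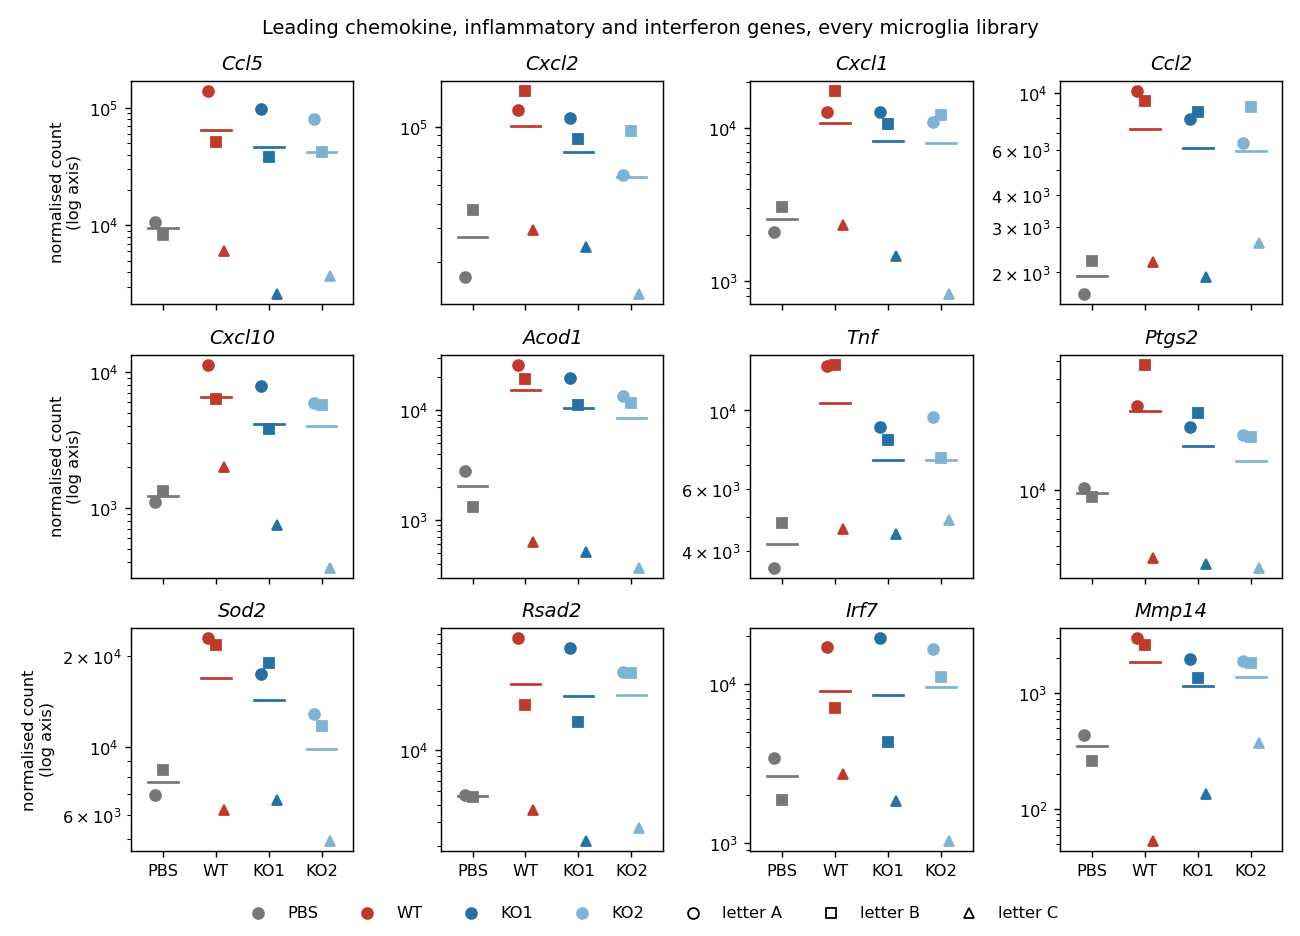
Normalised counts (log axis) of 12 leading genes in every microglia library: circles, squares and triangles are letters A, B and C, and the horizontal line is the arithmetic mean of the group. WT A and WT B lie above both PBS libraries in all 12 panels, and the C triangle of each exosome group is the lowest of its group.

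Inflammatory cytokines did not all stand on one side of PBS. Tnf, a central NF-kB activating cytokine, stood at 3596 and 4807 with PBS and at 13350, 13460 and 4618 in WT A, B and C. WT A and WT B averaged 13400 ± 79.4 (SD, n = 2) against 4202 ± 856 (SD, n = 2), and WT C fell inside the PBS range. The difference was 1.41 with letters A and B only (SE 0.186, adjusted p = 0.0152, limma, and 0.0544 without the filter) and 0.98 with WT C (SE 0.388, adjusted p = 0.964). Il1b stood at 2502 and 3647 with PBS and at 14900, 7687 and 663.0, and Il1a at 13900 and 19580 and at 38650, 34970 and 10360. In both, WT A and WT B were above and WT C below the PBS libraries. Il1rn, the secreted antagonist of the IL-1 receptor, was far more abundant at 58440 and 113300 with PBS and 194800, 141000 and 97780. Csf3, the granulocyte growth factor, stood at 1.07 and 171.0 with PBS and at 1735, 1321 and 0. In WT C it was thus below both PBS libraries. Il6 did not follow, at 1155 and 209.7 with PBS and 467.1, 426.0 and 75.4, and the list of 23 cytokines and growth factors had 14 above PBS with a median of 0.01. The anti-inflammatory regulators, which include Il1rn, had 11 of 17 above PBS (median 0.07).

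Among the NF-kB genes, inhibitors of the pathway stood above PBS in WT A and WT B. Tnfaip3, a deubiquitinase that ends NF-kB signalling, stood at 8365 and 11780 with PBS and at 17900, 25310 and 12890, with all 3 WT libraries above both (0.82, SE 0.357, adjusted p = 0.964, limma, and 1.06 with letters A and B only). Nfkbia, the inhibitor IkB-alpha, stood at 8561 and 13420 and at 20210, 21060 and 7260, and Nfkb2 at 2376 and 2387 and at 4604, 7240 and 1845. The subunit Rela did not follow, at 2115 and 2986 with PBS and 1949, 2565 and 1492. Nfkbid, an atypical inhibitor family member, was at 0 in both PBS libraries and at 244.0, 132.1 and 31.0.

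Of the 8 genes called with letters A and B only and the filter, 3 are enzymes of inflammatory metabolism. Acod1, which makes itaconate in activated macrophages (gene 16365; chromosome 14, 103047012 to 103056573), stood at 2778 and 1320 with PBS and at 26040, 19310 and 629.2 in WT A, B and C. WT A and WT B averaged 22670 ± 4762 (SD, n = 2) against 2049 ± 1031 (SD, n = 2) with PBS, and WT C was below both PBS libraries. The difference was 2.79 with letters A and B only (SE 0.284, adjusted p = 0.00457, limma, and 0.0766 without the filter) and 1.66 with WT C (adjusted p = 0.978). Sod2 stood at 6943 and 8406 with PBS and at 22940, 21810 and 6213, a difference of 1.46 with letters A and B only (SE 0.174, adjusted p = 0.00937, limma) and 0.89 with WT C. Ptgs2, the inducible cyclooxygenase, stood at 10280 and 9159 and at 28440, 47600 and 4291. Its difference was 1.92 with letters A and B only (SE 0.253, adjusted p = 0.0152, limma, and 0.127 without the filter) and 0.96 with WT C. WT C was again the lowest of the 5 libraries in both. Ptges, the next enzyme to prostaglandin E, stood at 2252 and 4766 and at 22730, 9819 and 3305, while the list of 11 prostaglandin genes had only 4 above PBS (median -0.015). Cybb, the catalytic subunit of the phagocyte NADPH oxidase, stood at 851.5 and 1854 and at 6978, 8850 and 392.4. Keap1, which senses oxidative stress, was above PBS in WT C as well, at 2329 and 1697 with PBS and 3749, 4042 and 3520 (0.53, SE 0.152, adjusted p = 0.774, limma, and 0.56 with letters A and B only). The heme-degrading enzyme Hmox1 did not separate, at 220300 and 172900 with PBS and 114400, 223000 and 273900.

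Mmp14, Plau and Vcam1, which act in tissue remodelling and adhesion, were low with PBS. Mmp14 stood at 436.5 and 259.7 with PBS and at 2984, 2609 and 52.5. Its difference was 1.04 with letters A and B only and 0.60 with WT C (adjusted p = 0.978, limma). The adjusted p of 0.0483 (SE 0.162, limma) came with the filter that Mmp14 passed only through the exosome groups, so it is not read as support. Without the filter it was 0.0498. Plau, the urokinase protease, stood at 111.9 and 181.6 and at 2575, 2340 and 200.4, with WT C just above PBS B. Vcam1, an adhesion receptor for leukocytes, stood at 0 and 72.2 and at 1479, 1101 and 24.7. The lists they belong to were mixed, with 7 of 17 matrix proteases and inhibitors (median 0) and 8 of 19 adhesion and migration genes (median -0.05) above PBS.

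The interferon genes were higher in WT A than in WT B. Rsad2 (viperin), an antiviral enzyme, stood at 4709 and 4550 with PBS and at 65190, 21440 and 3671 in WT A, B and C. WT C lay below both PBS libraries, and the difference was 3.71 within letter A, 1.99 within letter B, 2.85 with letters A and B only (SE 0.599, adjusted p = 0.212, limma) and 1.82 with WT C (SE 1.33, adjusted p = 0.978). Irf7, a transcription factor that amplifies the interferon response, stood at 3416 and 1853 and at 17160, 7062 and 2727, and Ifit1, which binds viral RNA, at 3480 and 1022 and at 18630, 6003 and 2232. In both genes WT C lay between the PBS libraries. Isg15, a ubiquitin-like modifier, stood at 3849 and 6590 and at 24920, 11070 and 4289. Against 7.12% of all varying genes, all 3 WT libraries lay above both PBS libraries in 10 of the 34 interferon genes. Among these were Usp18, which removes Isg15 from proteins (691.6 and 318.8 with PBS, 8550, 3051 and 1056 with WT exosomes), Zbp1, a nucleic acid sensor (358.1 and 369.5, then 5065, 2334 and 773.2), and Bst2, or tetherin (5240 and 3855, then 18960, 8702 and 6600). Their differences were 1.15 for Usp18, 0.91 for Zbp1 and 1.00 for Bst2 (1.58, 1.24 and 1.29 with letters A and B only), those with WT C each at adjusted p = 0.964 (limma). No interferon gene passed with letters A and B only and the filter, where 25 were tested and 0.153% of all 5227 genes passed. At that share, this count is not read as a result. Rsad2, Ifit1 and Bst2 passed in a fit with the letter as a replicate block, given at the end.

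MHC class I presentation followed the interferon genes in WT A more than in WT B, with list medians of 0.75 and 0.08 over the PBS mean and -0.15 in WT C. H2-T23, a non-classical class I chain, stood at 4448 and 2426 with PBS and at 32310, 7330 and 7088, with all 3 WT libraries above both PBS libraries (1.52, SE 0.717, adjusted p = 0.964, limma, with 2.63 within letter A and 1.12 within letter B). H2-Q4 stood at 1106 and 391.7 and at 5756, 2105 and 1284. B2m, the light chain, stood at 57410 and 51440 and at 174300, 76650 and 56440. The classical chain H2-D1 had a lower WT than PBS mean (59760 and 135600, then 75730, 85960 and 70700). Class I genes are near-identical copies of each other, so counts may be split between them. MHC class II genes did not follow, with 1 of 7 above PBS (median -0.08).

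Markers of border-associated macrophages, the macrophages of the meninges and vessel walls, differed in sum between the same libraries. They summed to 2311 and 1534 in PBS A and PBS B, 5721 in WT A, 6336 in WT B and 1327 in WT C, with 5, 5 and 3 of 10 markers at 100 or more in the WT libraries and 4 and 2 with PBS. Among the defining markers, F13a1 was at 0 in all 5 libraries and Lyve1 in all but WT C (36.6). Siglec1, which interferon also induces, stood at 2.13 and 0 with PBS and at 3403, 1022 and 0 in WT A, B and C, and Ms4a7 at 103.1 and 193.1 and at 972.9, 1544 and 738.2. WT A and WT B both lay above both PBS libraries in 2 of the 7 varying markers, against 14% of all varying genes. Pf4 stood at 1795 and 1341 with PBS and at 1044, 3465 and 368.4, and Mrc1 at 182.1 and 0 and at 161.0, 191.4 and 14.4, so that neither separated the groups. Monocyte and neutrophil markers summed to 217 in each PBS library and to 345 to 836 with WT exosomes, with 9 to 10 of 13 at 0. Choroid plexus and ependyma markers summed to 9010 in PBS A and to 52 to 669 in the others, and Ttr alone gave 5078 in PBS A. The part of these cell types in the results was not tested.

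**Figure D4:**
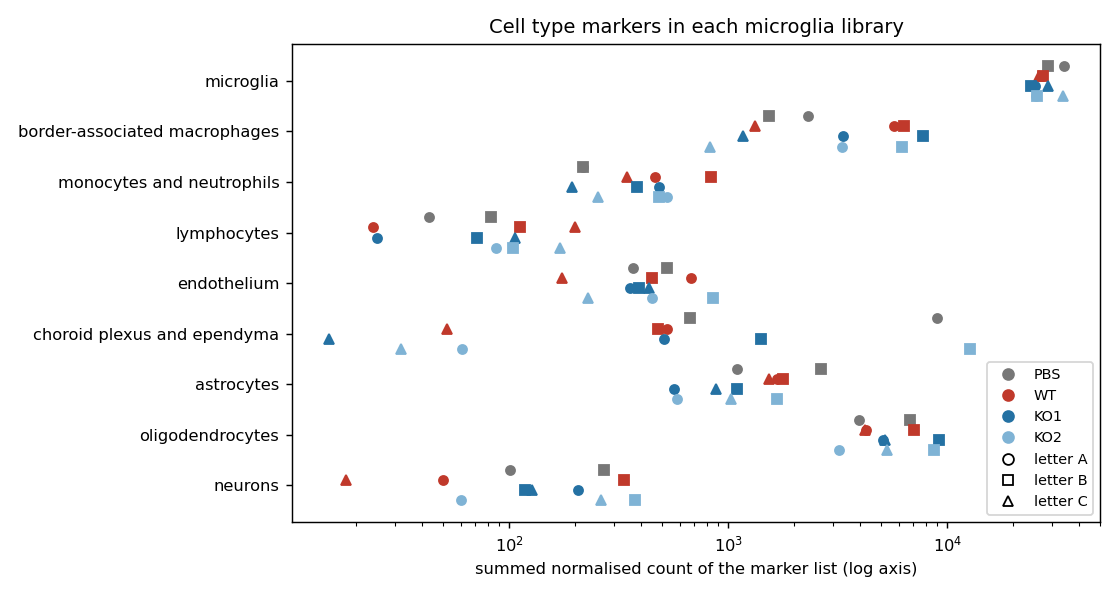
Summed normalised counts (log axis) of marker lists of 9 cell types in the 11 microglia libraries; colours are groups and symbols are letters. The microglia sum lies between 24057 and 34014 in every library, and the border-associated macrophage sum is lowest in the C libraries of the exosome groups (829 to 1327) and in PBS (1534 and 2311).

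Spp1 (osteopontin), secreted by reactive microglia, had the largest negative difference of all varying genes, at 272500 in PBS A, 57810 in PBS B, and 60600, 32190 and 20560 in WT A, B and C. The 2 PBS libraries were far apart and the groups overlapped, and the difference was -2.16 (SE 0.789, adjusted p = 0.955, limma), -2.60 within letter A and -0.94 within letter B. Ctsc, a lysosomal protease that activates others, stood at 10000 and 10960 with PBS and at 6479, 5709 and 6435. Its 3 WT libraries were alike and below both PBS libraries (-0.65, SE 0.211, adjusted p = 0.897, limma, and -0.67 with letters A and B only). All 3 WT libraries lay below both in 4 of 29 lysosomal genes, against 8.03% of all varying genes. Ctsd, a major lysosomal protease, stood at 514400 and 433500 and at 190700, 332100 and 551200, and Itgax (CD11c) at 311.9 and 199.1 and at 0, 0 and 50.9. Of 29 lysosomal genes 8 stood above PBS (median -0.10), and of 25 disease-associated microglia genes 9 (median -0.085). Within the latter list Gpnmb stood above PBS in WT A and WT B, at 7705 and 11930 with PBS and 26400, 19330 and 8583.

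Homeostatic microglia genes stood close to PBS, with 8 of 23 above (median -0.07). Siglech was the exception with the largest value, at 47.5 and 135.3 with PBS and 965.1, 941.2 and 401.3 (0.46, SE 0.151, adjusted p = 0.897, limma, and 0.57 with letters A and B only), while Tmem119 lay lower, at 432.6 and 294.0 and at 99.7, 97.6 and 111.3. Oxidative phosphorylation had 7 of 31 genes above PBS and cytosolic ribosomal proteins 6 of 30, each with a median of -0.10. WT A and WT B both lay below both PBS libraries in 14 and 17 of these genes, against 13.4% of all varying genes, and the medians in WT C were 0.02 and 0.02. Cycs, cytochrome c, stood at 15180 and 15860 with PBS and at 12290, 11400 and 12800, and Rpl7 at 8906 and 6615 and at 5582, 6213 and 5797. In both genes every WT library lay below both PBS libraries. In glycolysis and hypoxia, 8 of 24 genes stood above PBS (median -0.14). Hk1, the first enzyme of glycolysis, stood at 3258 and 3491 and at 1253, 2124 and 1137 (-0.63, SE 0.156, adjusted p = 0.655, limma, and -0.55 with letters A and B only), and Hif1a, the oxygen-regulated transcription factor, at 3859 and 3787 and at 3132, 1855 and 1477. In both genes every WT library lay below both PBS libraries, WT C included.

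The remaining lists lay closer to 0. Complement had 11 of 17 genes above PBS (median 0.11), alternative activation 7 of 9 (0.17), TGF-beta and BMP response 17 of 24 (0.06), Toll-like receptors and adaptors 12 of 21 (0.03), cholesterol synthesis and uptake 12 of 21 (0.02), endocytosis and vesicle uptake 14 of 26 (0.01), cell cycle 14 of 26 (0.01) and hyaluronan metabolism 6 of 14 (0). Phagocytic and scavenger receptors had 13 of 27 above PBS (median -0.03), and among them Marco was at 0 in both PBS libraries and at 329.5, 459.9 and 167.5 in WT A, B and C. Lipid efflux and storage had 6 of 20 (median -0.085), unfolded protein and integrated stress 7 of 20 (-0.055), heat shock chaperones 5 of 14 (-0.10), immediate early and dissociation stress 7 of 24 (-0.095), microglial transcription factors 9 of 21 (-0.05) and p53 targets 6 of 14 (-0.004).

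Across genes, the difference within letter A and that within letter B had a Pearson correlation of 0.12 over 13950 genes and 0.25 over the 5227 genes with a mean at least 1 above the floor. Genes are not independent replicates, and both pairs share 1 normalisation, so these are descriptions. Interferon genes stood farther from 0 in letter A, with a median of 1.08 against 0.40, and chemokines in letter B, with 0.86 against 0.45.

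**Figure D5:**
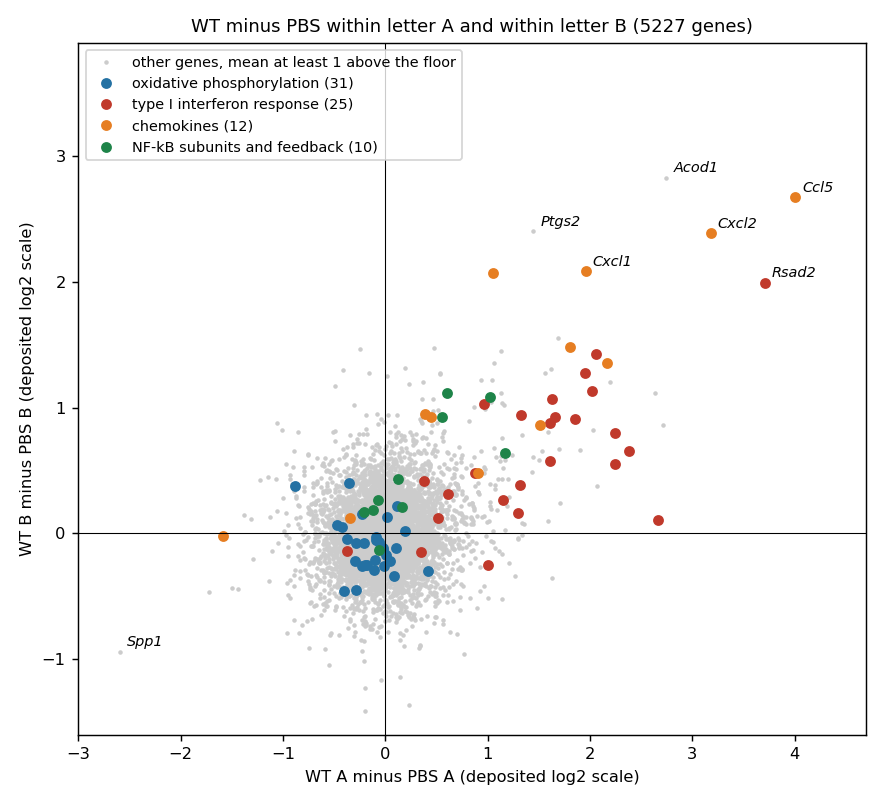
WT A minus PBS A (horizontal) against WT B minus PBS B (vertical) on the deposited log2 scale for 5227 genes. Most genes scatter around 0 in both letters, and Ccl5, Cxcl2, Acod1 and Rsad2 stand far into the upper right.

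The libraries given KO1 or KO2 exosomes followed the same split by letter. They share the PBS libraries with the comparison above, so only values are given. Acod1 stood at 19740, 11220 and 513.9 in KO1 A, B and C and at 13660, 11630 and 368.4 in KO2 A, B and C. Cxcl1 stood at 12820, 10680 and 1472 and at 10970, 12310 and 824.2, and Rsad2 at 55580, 16010 and 2168 and at 37060, 36480 and 2700. In each of these genes the A and B libraries lay above both PBS libraries and the C libraries below both. The C libraries were not below both in every gene that stood higher in WT A and WT B. In Ccl2 and Tnf, KO1 C lay between the PBS libraries (1928 and 4470) and KO2 C above both (2607 and 4894). Endothelial cells of the same series were normalised apart in a table of 10 libraries. It holds WT A and WT B but no WT C, and PBS A, B and C, so its letters are unlike those of the microglia. There WT minus PBS was 0.66 for Cxcl1 (SE 0.36), 0.77 for Cxcl2 (SE 0.245), 1.02 for Ptgs2 (SE 0.254), 1.37 for Irf7 (SE 0.415) and 0.12 for Acod1 (SE 0.0796). It was 0.45 for Ccl2 (SE 0.247), 0.41 for Sod2 (SE 0.218), 0.21 for Mmp14 (SE 0.238) and -0.005 for Tnf (SE 0.103). None of these passed (limma, 9 of 14164 genes passed).

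The authors' deposited table for microglia lists 238 genes from a likelihood ratio test, which asks whether a gene differs anywhere among the groups and not whether WT differs from PBS. In the authors' deposited table Acod1 has an adjusted p of 2.16e-49, Ccl5 of 9.16e-32, Ifit1 of 2.29e-21, Ccl2 of 7.65e-19 and Cxcl1 of 1.04e-16. All 8 genes called with letters A and B only and the filter on the mean are in the authors' deposited table. So are 15 of 34 interferon genes, 7 of 19 chemokines and 8 of the 20 genes of smallest p named above, Map3k2 among them, while Pip4k2c is not. For comparison, the authors' deposited table holds 238 genes, and 13950 genes varied. Of its 238 genes, 161 stood above PBS in the fit with all 3 WT libraries, against 6501 of 13950 varying genes. The authors' list was chosen on these samples and is not independent evidence of a direction.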

How the data were processed

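Microglia RNA was sequenced from 11 libraries of 4 groups. Per the submitters' processing notes, FastQC 0.11.7, Trimmomatic 0.38, Salmon 0.10.0, DESeq2 1.18.1 and GRCm38.p6 were used, with no role or order given. The authors deposited variance-stabilised log2 values per gene (floor 9.89), and the labels do not state the settings. The authors' deposited table of a likelihood ratio test gives 238 genes with p-values, a statistic and an error (here called scores) and mean normalised counts (a signal over libraries). Normalised counts were recovered here by fitting the scale to those deposited means, with a largest held-out error of 0.026%. Of recovered values under 20 reads, 86.2% to 92.9% per library lay within 0.1 of a whole read.

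The main test was limma 3.58.1 (R 4.3.3) on the deposited log2 values of 11 libraries with a mean-variance trend, Benjamini-Hochberg adjustment over 13950 varying genes and a threshold of 0.05. The rule for named genes took the 10 genes of smallest p in each direction, the genes of the sort gate, and up to 4 genes of largest absolute difference per list. Ccl2, Ccl3, Ccl4, Cxcl3, Il6, Nfkbia, Rela, Bst2, Isg15, Zbp1, H2-D1, Hmox1 and the single cell type markers were named after their values were seen. Members and lists were chosen with earlier results of these data known. Letters were not used as a block in the main fit, and the alternatives were a block, letters A and B only, other filters, scales and fits, and leaving out each library. Combinations of these, and a filter on the PBS mean, were added after seeing the data. The PBS library of letter C was not analysed here. Promoter sequences came from RefSeq on GRCm38.p6, matched by gene ID for 11197 of 13950 genes. Some genes are not reported here.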

Additional observations from a re-analysis of the deposited data

How the results depend on the processing

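The number of genes passing was 1 of 13950 in the fit reported (0 higher, 645 at an unadjusted p under 0.05). With limma it was 0 of 5227 genes with a mean at least 1 above the floor (253 at unadjusted p under 0.05), 0 of 10557 genes above the floor in at least 6 libraries (553), 0 of 12864 with only the WT and PBS libraries (543) and 0 with robust empirical Bayes (662). It was 4 on log2 of counts plus 10 and 6 on log2 of counts plus 50, all lower, and 1 with median-centred libraries or no trend. Leaving out 1 library at a time gave 0 to 109: 109 without PBS A and 100 without PBS B, mostly lower and with the lone PBS library assumed to vary like the other groups, 9 without WT C, and 0 without WT A or without WT B. Letters A and B only gave 53.

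With letter as a replicate block, 19 genes passed, 18 of them higher. Among them were 7 of the 8 genes called with letters A and B only and the filter on the mean. Of genes that missed the threshold elsewhere, Ccl5 (3.36, limma adjusted p = 0.000996), Map3k2 (1.08, 0.00952), Ifit1 (1.76, 0.0106), Cxcl10 (1.80, 0.0107), Cxcl3 (1.60, 0.0295), Rsad2 (2.88, 0.0295) and Bst2 (1.28, 0.0324) passed with the block. With letters A and B only, the block and no filter, the limma adjusted p of these genes ran from 0.108 for Map3k2 to 0.575 for Rsad2. With the filter on the mean as well, added after seeing the data, it ran from 0.000845 for Ccl5 to 0.025 for Cxcl3 and Bst2. Same-lettered libraries had correlated deviations from their group means in 15 of 15 pairs, but from 0.011 to 0.313, so the letters were not taken as pairs. Pairs with a PBS library ran from 0.011 to 0.065, and pairs of exosome libraries from 0.062 to 0.313. With PBS A and PBS B alone in their group, their deviations mirror each other, so the PBS pairs are not separate evidence. In 10 of 11 libraries the best correlation was with a library of the same letter, which is a hint from the data and not from the design. Added after seeing the data, the filter on the mean gave 8 genes with letters A and B only, 46 with the replicate block and all letters, and 25 with both, and each of the last 2 sets holds all 8. Without the filter, letters A and B with the block gave 0 of 13950 genes (849 at unadjusted p under 0.05), against 53 without the block, and the Pip4k2c call was lost (limma adjusted p = 0.0889). With letters A and B only and a filter on the PBS mean, 8 genes passed.

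Of the named genes, 4 changed sign under some alternative. H2-D1 went to 0.17 with the replicate block, with and without the filter, and ranged from -0.97 without PBS A to 0.43 without PBS B. Ccl4 ranged from -0.12 without PBS A to 0.78 without PBS B, Il6 from -0.47 without PBS B to 0.07 without PBS A, and Hmox1 from -0.35 without WT C to 0.41 without WT A. The cause was not tested. Over 75 named genes and 20 alternatives, 1226 values kept direction and side of the threshold, 104 newly passed, 7 no longer passed and 7 changed sign. No fit had more than 3 libraries in a group.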
